A study of Homo sapiens with 2 samples.

Results

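The nuclear-encoded subunits of respiratory chain complex I were followed as a set of 35 listed genes in single-cell libraries of MDA-MB-231 mammospheres. Of the 35, 34 had a row among the 19826 genes of the count table, and NDUFB8 was not analysed here. The list does not hold every subunit of the complex. MDA-MB-231 is a long-established human breast cancer line with mesenchymal features that lacks the hormone receptors, and mammospheres are floating spheres grown on low-attachment plates. One library came from cells adapted for 30 days to flat culture in high-glucose medium with 2 mM metformin and then grown as mammospheres for 10 days. The other came from cells taken through the same 30 and 10 days with 0 mM metformin. Whether metformin was also in the mammosphere medium is not given in the labels. With a single library at each dose (1 and 1), the differences below have no replicate check and were not tested, and every interval is a 95% interval that covers counting error alone.

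Complex I passes electrons from NADH to ubiquinone and pumps protons across the inner mitochondrial membrane. It is L-shaped. Its matrix arm holds the N module, which oxidises NADH at a flavin, and the Q module, where iron-sulfur clusters hand electrons to ubiquinone. Its membrane arm is built around subunits encoded by mitochondrial DNA, and the nuclear-encoded members are grouped here by the assembly module they join (ND1, ND2, ND4 and ND5). Metformin is a biguanide drug for type 2 diabetes that is known to inhibit this complex. Respiratory subunit genes are known targets of the transcription factors NRF1 and YY1.

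The 2 mM library held 991 cells and 3264343 unique molecular identifiers (UMIs, tags that mark single captured transcripts), with a median of 2509 UMIs per cell. The 0 mM library held 1000 cells and 4403045 UMIs, with a median of 3386. The libraries shared 0 cell barcodes. The labelled line was checked by its markers: VIM had 1596 CPM (UMIs of a gene scaled to a common library total) at 2 mM and 3271 at 0 mM, and CD44 262 and 372 CPM. ZEB1 was also present, while SPARC, a further marker on the mesenchymal list, had 3 and 1 UMIs. The luminal markers ESR1 and CDH1 each had 0 UMIs at 2 mM and 2 at 0 mM, although EPCAM, KRT8 and KRT18 were present. The leukocyte marker PTPRC had 1 and 0 UMIs, and the leukocyte list, mostly CD14, summed to 16.8 CPM with metformin and 6.13 CPM without it. The part of such transcripts in the results was not tested. Each library was deposited with 1000 barcodes, of which 95 at 2 mM and 96 at 0 mM held an unread base (N). A cell here is a barcode, and barcodes 1 base apart may come from the same cell. Merging barcodes 1 base apart left 888 cells at 2 mM and 931 cells at 0 mM.

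The promoter windows of 3 members are printed because these members mark the range of the set. NDUFB2 had the highest ratio between libraries, NDUFS7 the highest ratio of the core subunits compared, and NDUFA10 the lowest ratio of all members compared. Each window runs from 250 bases before to 50 bases after the RefSeq start of the gene on GRCh38.p14, 5′ to 3′ on the gene's strand. Capitals mark matches to the motifs described next. The windows lie at chr7:140696458-140696757 on the plus strand for NDUFB2, chr19:1383657-1383956 on the plus strand for NDUFS7, and chr2:240025293-240025592 on the minus strand for NDUFA10.
NDUFB2: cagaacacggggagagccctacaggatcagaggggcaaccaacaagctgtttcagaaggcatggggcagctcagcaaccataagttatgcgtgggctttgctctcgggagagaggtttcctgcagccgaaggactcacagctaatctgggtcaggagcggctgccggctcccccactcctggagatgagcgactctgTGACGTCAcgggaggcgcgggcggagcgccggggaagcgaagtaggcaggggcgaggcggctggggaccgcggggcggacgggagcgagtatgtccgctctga
NDUFS7: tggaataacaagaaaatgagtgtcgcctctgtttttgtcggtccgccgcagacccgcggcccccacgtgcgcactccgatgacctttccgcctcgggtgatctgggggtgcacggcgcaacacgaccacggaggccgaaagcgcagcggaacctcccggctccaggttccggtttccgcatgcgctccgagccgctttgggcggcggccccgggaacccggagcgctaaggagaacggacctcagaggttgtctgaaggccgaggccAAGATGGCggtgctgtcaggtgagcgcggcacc
NDUFA10: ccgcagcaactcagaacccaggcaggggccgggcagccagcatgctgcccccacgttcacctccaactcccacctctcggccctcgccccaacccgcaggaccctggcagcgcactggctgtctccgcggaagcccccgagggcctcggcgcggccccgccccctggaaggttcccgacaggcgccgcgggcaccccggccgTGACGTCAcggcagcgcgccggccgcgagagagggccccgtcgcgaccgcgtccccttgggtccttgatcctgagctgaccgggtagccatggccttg
RefSeq windows were matched for 29 of the 34 members, and both strands were searched. The NRF1 motif, searched as GCGC, any 1 base and TGCGC, was found in 6 of 29 members (20.7%) and in 6.98% of all 27305 genes with a window. The YY1 motif, written AANATGGC, was found in 11 of 29 members (37.9%) and in 7.97% of all genes, and NDUFS7 was one of the 11. The cyclic AMP response element TGACGTCA, searched for only after the windows had been seen, was found in 2 of 29 members (6.90%) and in 2.25% of all genes. Those 2 members were NDUFB2 and NDUFA10, which stand at opposite ends of the ratios below. Each printed window held 1 match, so no matches overlap there. A match describes letters in a window and does not show that a factor binds there.

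Over all cells, complex I transcripts were slightly more abundant in the 2 mM library. The 33 members other than NDUFA4 summed to 7253 CPM (7161 to 7346) at 2 mM and 6580 CPM (6505 to 6656) at 0 mM, a ratio of 1.10 (1.08 to 1.12). NDUFA4 was left out of this sum because its protein is now assigned to complex IV, cytochrome c oxidase. Without NDUFB2 the ratio of the sums was 1.07, and with TMM factors, an alternative scaling that trims extreme genes, it was 1.04 with NDUFB2 included. The same sums over 36 nuclear genes of complexes II to V were 16643 CPM with metformin and 15523 CPM without it, a ratio of 1.07 (1.06 to 1.08).

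Ratios were read only for genes that reached 50 CPM in 1 library or the other and 50 UMIs in all, and 1.5-fold was the size at which a gene was counted as higher or lower. Of the members, 33 passed this minimum, and NDUFV2 did not, so these 33 hold NDUFA4 and lack NDUFV2, unlike the 33 genes summed above. NDUFB2 was the single member at least 1.5-fold higher at 2 mM, and 0 of 33 were at least 1.5-fold lower. The share of all 4105 genes compared that passed this size was 5.04% for higher and 3.31% for lower, so 1 of 33 is near or below the background. That background depended on the scaling, with 207 genes higher and 136 lower by library totals, and 140 higher and 223 lower with TMM factors. The median log2 ratio of the 33 members was 0.03, beside 0.02 over all genes compared. By library totals 20 members had ratios above 1 and 13 below, whereas with TMM factors 14 lay above and 19 below.

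**Figure D1:**
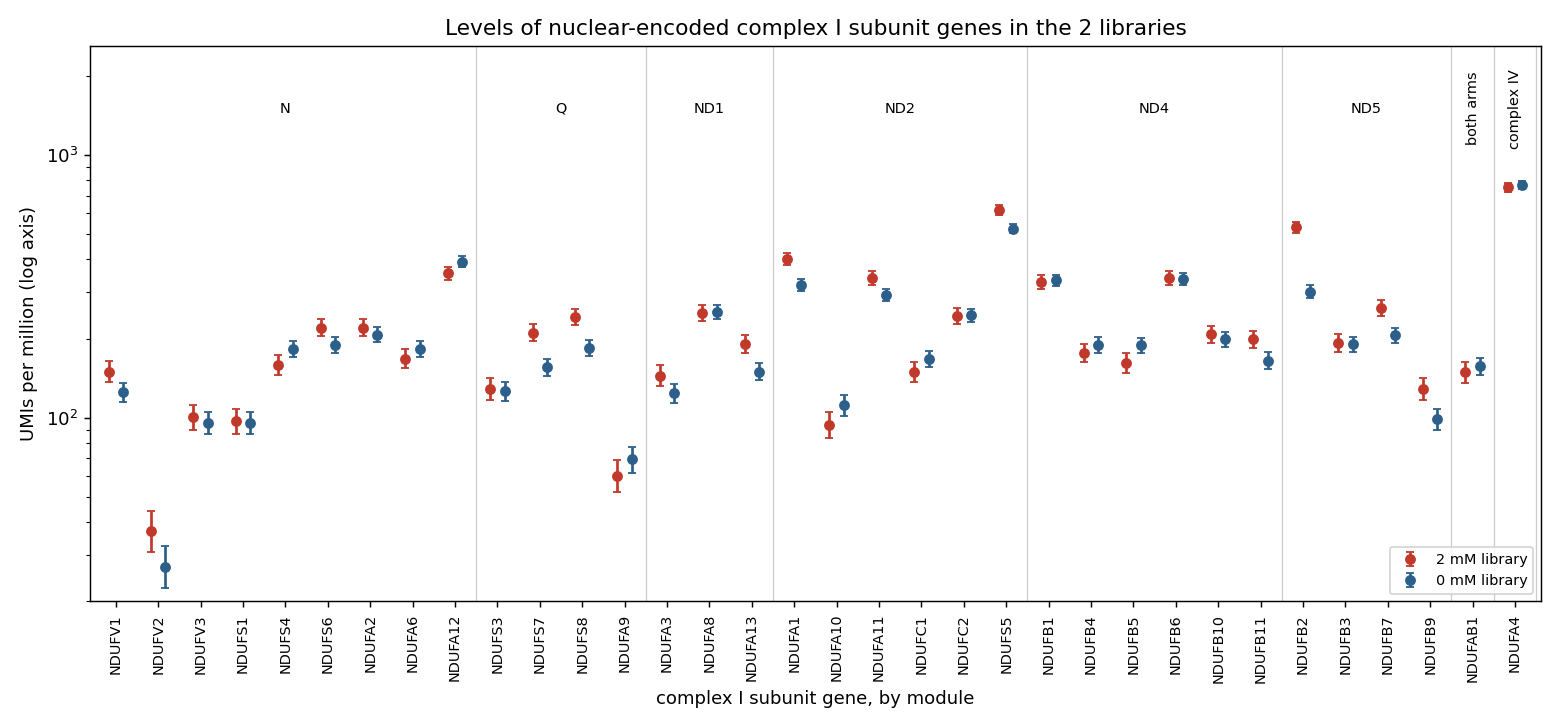
Level of each of the 34 subunit genes in CPM (log axis), grouped by module, in the 2 mM library (red, left of each pair) and the 0 mM library (blue). Points are library sums and bars are exact 95% Poisson intervals; the NDUFB2 pair, at 530 CPM and 302 CPM, lies furthest apart.

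The members were captured at levels between 27.0 CPM (NDUFV2) and 770 CPM (NDUFA4) in the 0 mM library. These levels are not adjusted for transcript length, so each gene is read here against itself. NDUFA4, NDUFS5 and NDUFA12 gave the most UMIs at 0 mM. NDUFA4 had 753 CPM with metformin and 770 CPM without it, a ratio of 0.977 (0.927 to 1.03). NDUFS5, a cysteine-rich subunit on the intermembrane side, had 619 CPM with metformin and 524 CPM without it, a ratio of 1.18 (1.11 to 1.25). The fewest UMIs at 0 mM belonged to NDUFV2, NDUFA9, and the pair NDUFS1 and NDUFV3, which had 419 UMIs each. Processed copies bear on several of these, since 16 of the 34 members have at least 1 pseudogene named after them in RefSeq, with 12 for NDUFB4, 7 for NDUFS5 and 6 for NDUFA3. Counts of these genes are uncertain for that reason. Overlap is a further limit, since 14 of the 34 members overlap another RefSeq gene, and 7 overlap one that was also counted. Those 7 are NDUFS6, NDUFA2, NDUFA3, NDUFC1, NDUFC2, NDUFB11 and NDUFB2.

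In the N module, the entry point of electrons, the members split around a ratio of 1. Their summed level was 1504 CPM with metformin and 1496 CPM without it, a ratio of 1.01 (0.969 to 1.04). NDUFV1, which carries the flavin that takes electrons from NADH, had 150 CPM with metformin and 125 CPM without it, the highest ratio of the module among genes compared, at 1.20 (1.06 to 1.36). NDUFV2, which carries an iron-sulfur cluster beside the flavin, had 121 UMIs at 2 mM and 119 UMIs at 0 mM (37.1 and 27.0 CPM), below the minimum for comparison. No direction is read for NDUFV2, and NDUFV1 lay within 1.5-fold. NDUFS1, which holds further iron-sulfur clusters of the chain, had 96.8 CPM with metformin and 95.2 CPM without it, a ratio of 1.02 (0.876 to 1.18). NDUFS4, an accessory subunit whose loss destabilises the N module in mice and patients, had 158 CPM with metformin and 182 CPM without it. Its ratio of 0.868 (0.776 to 0.971) was the lowest of the module. NDUFA12 also had an interval below 1, at 354 CPM and 393 CPM, and NDUFS6 one above 1, at 220 CPM and 189 CPM.

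In the Q module, the site of ubiquinone reduction, the summed level was 640 CPM with metformin and 535 CPM without it, a ratio of 1.20 (1.13 to 1.27). NDUFS7 and NDUFS8 hold the last iron-sulfur clusters before ubiquinone, and neither ratio reached 1.5 over all UMIs. NDUFS7 had 210 CPM with metformin and 156 CPM without it, a ratio of 1.35 (1.22 to 1.51). NDUFS8 had 241 CPM with metformin and 184 CPM without it, a ratio of 1.31 (1.19 to 1.45). With cells thinned at random to 1000 UMIs, NDUFS8 did pass 1.5-fold, at a log2 ratio of 0.69. For that setting no share of all genes is given. NDUFS3, a core subunit with no cluster, had 128 CPM with metformin and 126 CPM without it, and its interval of 0.895 to 1.16 held 1. The accessory subunit NDUFA9 had 60.0 CPM with metformin and 69.3 CPM without it, and its interval of 0.721 to 1.04 held 1. Taking the core subunits of both modules, 5 of the 5 compared had ratios above 1, a count that was 3 of 5 with TMM factors, where NDUFS1 and NDUFS3 lay below 1. Of all genes compared, 2159 of 4105 had ratios above 1.

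The proximal membrane arm, made of the ND1 and ND2 modules, also held members on both sides of 1. The ND1 members summed to 587 CPM with metformin and 526 CPM without it, a ratio of 1.12 (1.05 to 1.19). NDUFA13, also known as GRIM-19 and described in human cells as a partner of STAT3, had 191 CPM with metformin and 150 CPM without it. NDUFA8 was level, at 251 CPM and 253 CPM. The ND2 members summed to 1848 CPM with metformin and 1660 CPM without it, a ratio of 1.11 (1.08 to 1.15). Within ND2 the X-linked gene NDUFA1, whose product is needed for assembly of the membrane arm, had 401 CPM with metformin and 320 CPM without it, a ratio of 1.25 (1.16 to 1.35). NDUFA10, a relative of nucleoside kinases, had 94.0 CPM with metformin and 111 CPM without it. Its ratio of 0.845 (0.730 to 0.977) was the lowest of the 33 members compared. Thus the same module held one of the higher ratios and the lowest.

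The distal membrane arm is made of the ND4 and ND5 modules, and the level of the second turned on NDUFB2. The ND4 members summed to 1413 CPM with metformin and 1410 CPM without it, a ratio of 1.002 (0.964 to 1.04). Their extremes were NDUFB11, at 199 CPM and 165 CPM, and NDUFB5, at 162 CPM and 189 CPM. The 4 ND5 members analysed summed to 1113 CPM with metformin and 796 CPM without it, a ratio of 1.40 (1.33 to 1.46). Without NDUFB2 the other 3 summed to 583 CPM with metformin and 495 CPM without it, a ratio of 1.18 (1.11 to 1.25), in an alternative added after seeing the data. All 4 had ratios above 1 by library totals, with NDUFB3 the lowest at 1.01 (0.911 to 1.12), which falls below 1 with TMM factors. NDUFB7, a cysteine-rich subunit of the intermembrane side, had 262 CPM with metformin and 206 CPM without it. NDUFB9, whose product binds the mitochondrial acyl carrier protein, had 128 CPM with metformin and 98.6 CPM without it. The gene of that carrier protein, NDUFAB1, which sits in both arms, had 149 CPM and 157 CPM, a ratio of 0.947 (0.842 to 1.07). The differences between modules were not tested.

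NDUFB2, a small accessory subunit at the far end of the membrane arm, had 1731 UMIs at 2 mM and 1329 UMIs at 0 mM. That is 530 CPM with metformin and 302 CPM without it, a ratio of 1.76 (1.63 to 1.89), and 100 of the 4105 genes compared (2.44%) had a ratio as high or higher. Over the processing alternatives run for this gene the ratio stayed between 1.65 and 1.78. The difference was present on both sides of every state list used below. In cells with few interferon-response transcripts NDUFB2 had 549 CPM with metformin and 345 CPM without it, and in cells with many it had 504 CPM with metformin and 249 CPM without it. The ratio ran from 1.59 to 2.02 over those cell classes, and both ends were found on the interferon list. The antisense gene NDUFB2-AS1 overlaps NDUFB2 in RefSeq, and reads of the pair cannot be told apart if counting ignored strand. It had 9 UMIs at 2 mM and 13 at 0 mM. RefSeq also names 1 pseudogene of NDUFB2.

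**Figure D2:**
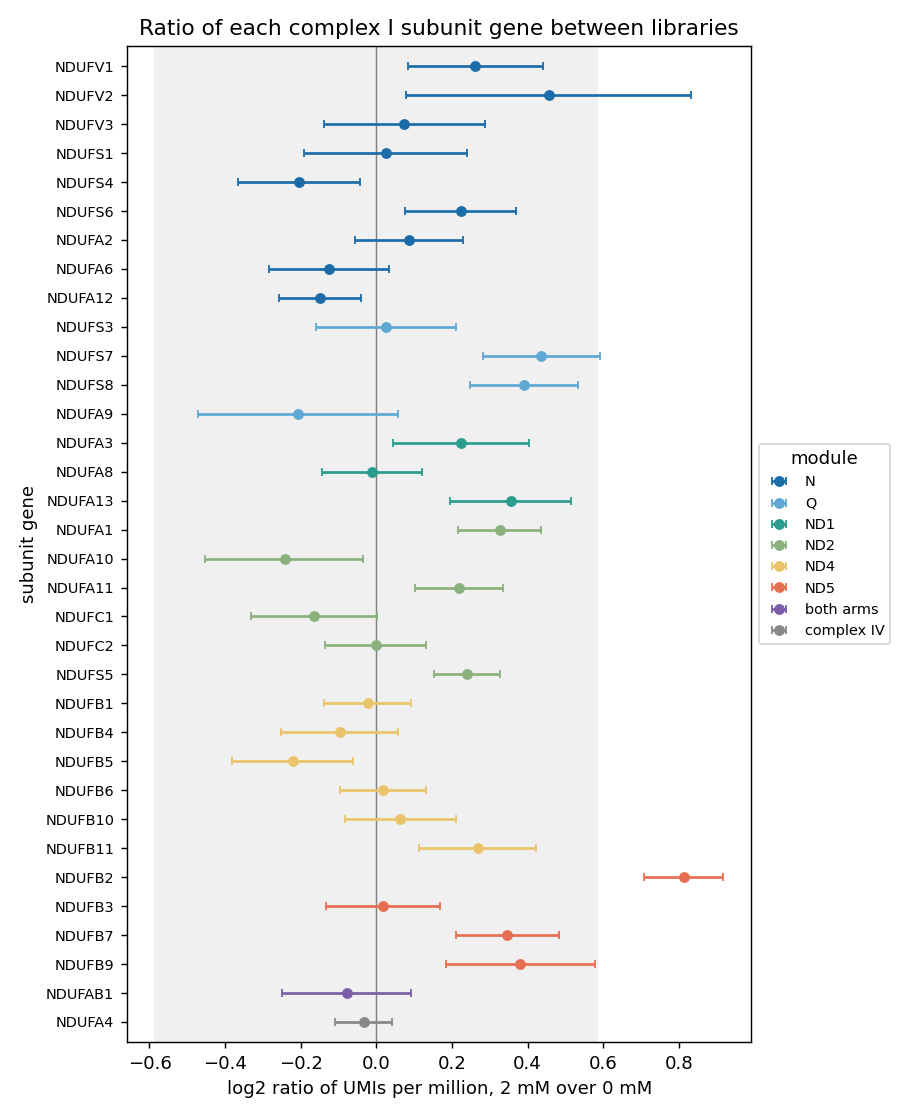
Log2 ratio of CPM, 2 mM over 0 mM, for each subunit gene, coloured by module, with exact conditional 95% intervals; the grey band marks ratios within 1.5-fold. NDUFB2, at a ratio of 1.76, lies outside the band, and NDUFV2, shown with its wide interval, was below the minimum for comparison.

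The matrix arm had a ratio of sums of 1.06 (1.02 to 1.09) and the membrane arm one of 1.13 (1.11 to 1.15). Without NDUFB2, an alternative added after seeing the data, the membrane arm had 1.08 (1.06 to 1.11), and the difference between the arms was not tested. The intervals treat each UMI as a separate draw and leave out the spread between cells and cultures, so they are too narrow. TMM factors lowered every log2 ratio by a constant (a shift of -0.09), and the module medians were then below 0 for N (-0.037) and ND4 (-0.089) and above 0 for Q, ND1, ND2 and ND5.

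The other genes tied to the complex that could be compared gave no shared direction. Of 16 assembly factor genes in the table, 9 passed the minimum, 0 of them past 1.5-fold either way, beside 8.36% of all genes. Their ratios ran from 0.768 (0.686 to 0.859) for NDUFAF3, an early assembly factor, to 1.40 (1.15 to 1.71) for ECSIT, which acts on the ND2 module. The 7 mitochondrially encoded subunit genes summed to 12334 CPM with metformin and 12852 CPM without it, a ratio of 0.960 (0.948 to 0.972). Among these MT-ND3 had the lowest ratio, 0.779, and MT-ND5 the highest, 1.28, and 0 of 7 passed 1.5-fold. Of 12 regulators of respiratory genes, TFAM and YY1 passed the minimum, with ratios of 1.09 and 0.907. No direction is read for the regulators and assembly factor genes below the minimum, so their levels are not called unchanged. The interval of TFAM, which packages and transcribes mitochondrial DNA, held 1.

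Complex I levels also differed between cells of 1 library, by the state of the cell. Cells were thinned at random to 1000 UMIs and classed by whether they held at least 3 UMIs of a list of S-phase, G2/M, interferon-response or hypoxia genes, none of which is a subunit gene. This left out 191 cells at 2 mM and 56 cells at 0 mM that were shallower. Such a class is a range and not a cell type: on the interferon list 51 cells at 2 mM and 57 cells at 0 mM held exactly 3 UMIs, and 89 and 90 held 2. Levels in each class were then taken from all UMIs of its cells. The lists themselves differed between libraries, with the G2/M list at 5910 CPM with metformin and 7956 CPM without it and the interferon list at 5520 CPM and 6387 CPM.

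Cells with interferon-response transcripts held a smaller share of complex I transcripts in both libraries. In the 2 mM library, 238 such cells had 6582 CPM of the 33 subunit genes (6423 to 6745) and the 562 others 7653 CPM (7536 to 7771), a ratio of 0.860 (0.836 to 0.885). In the 0 mM library, 437 such cells had 6021 CPM (5910 to 6135) and the 507 others 7026 CPM (6923 to 7131), a ratio of 0.857 (0.837 to 0.878). The classes did not overlap within their counting intervals in either library. Both arms showed it, with ratios of 0.853 for the matrix arm and 0.865 for the membrane arm at 2 mM, and 0.855 and 0.859 at 0 mM. The ratio of the 2 mM over the 0 mM library was 1.09 inside either class, 1.09 (1.06 to 1.13) in interferon-list cells and 1.09 (1.07 to 1.11) in the others.

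Member by member, the lower level was widespread but modest in size. In the 2 mM library 28 of 33 members had a ratio below 1 between interferon-list cells and other cells, and in the 0 mM library 31 of 33. Over all genes 59.7% and 60.3% had ratios below 1, in the same order. In both libraries at once, 26 of 33 members were below 1 and 0 above, beside 48.8% of 3819 genes below 1 in both and 27.9% above in both. The members' median log2 ratio was -0.26 at 2 mM and -0.23 at 0 mM, beside -0.09 and -0.10 over all genes. No member passed 1.5-fold in either library (0 of 33 in each), beside 18.4% of all genes at 2 mM (8.66% higher, 9.75% lower) and 19.2% at 0 mM (8.7% higher, 10.5% lower).

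The lowest ratio in this comparison belonged to NDUFA10 at 2 mM, with 70.4 CPM in interferon-list cells and 105 CPM in others, and to NDUFA6 at 0 mM, with 145 CPM and 212 CPM. NDUFA6, an accessory subunit that binds the acyl carrier protein in the matrix arm, had 179 CPM and 169 CPM at 2 mM, so its ratio lay on the other side of 1 there. The highest ratios were those of NDUFV3 at 2 mM (116 CPM and 94.0 CPM) and of NDUFS4 at 0 mM (185 CPM and 181 CPM), both with intervals that held 1. Such single genes rest on few UMIs, for example 69 of NDUFA10 in interferon-list cells at 2 mM.

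**Figure D3:**
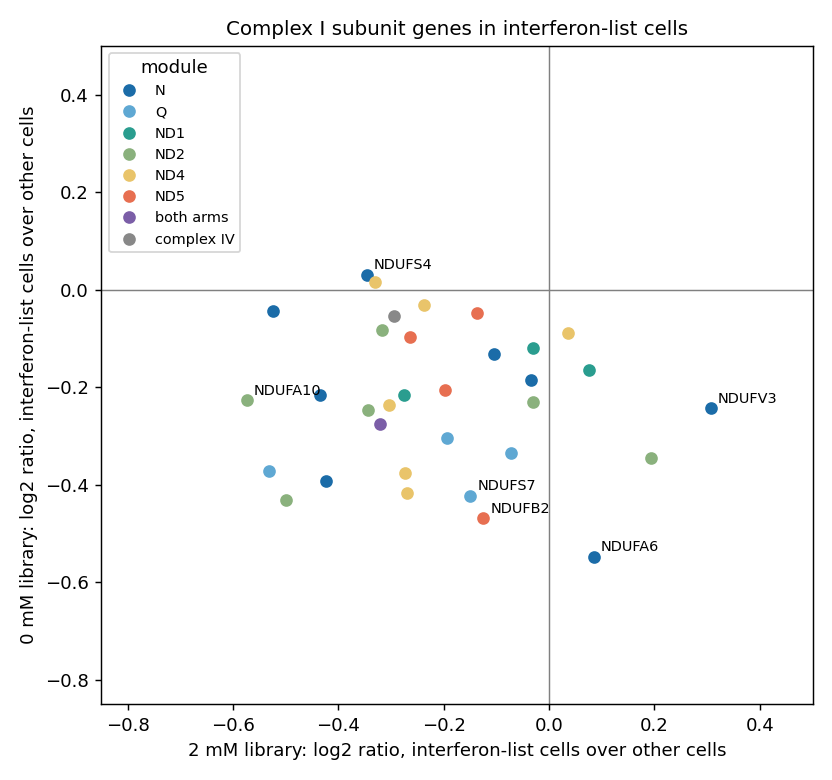
Log2 ratio of interferon-list cells over other cells for the 33 subunit genes compared, in the 2 mM library (horizontal axis) and the 0 mM library (vertical axis), coloured by module. The 26 genes in the lower left part had ratios below 1 in both libraries, and the upper right part is empty.

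Other mitochondrial gene groups were lower in the same cells. Interferon-list cells over other cells had ratios of 0.837 at 2 mM and 0.832 at 0 mM for complexes II to V, 0.803 and 0.815 for 31 mitochondrial ribosome genes, and 0.768 and 0.808 for the mitochondrially encoded complex I genes. The complex I ratio thus lay nearer 1 than the other 3, and the differences were not tested. Interferon-list transcripts took 1.57% of UMIs in these cells at 2 mM and 1.39% at 0 mM, and the complex I ratio counted per UMI outside that list and outside mitochondrial genes was 0.863 in each library. Median depth was 3189 UMIs in interferon-list cells and 3027 in others at 2 mM, but 3224 and 3874 at 0 mM. Cycle transcripts were carried by 49.2% of interferon-list cells and 58.7% of others at 2 mM, and by 61.1% and 65.1% at 0 mM. In cells with few cycle transcripts the ratio was 0.836 at 2 mM and 0.896 at 0 mM, a check added after seeing the data. With cells thinned to 2000 UMIs it was 0.938 at 2 mM and 0.890 at 0 mM.

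Cells carrying S-phase transcripts held more complex I transcripts. In the 2 mM library 225 S-list cells had 7662 CPM and 575 others 7142 CPM, a ratio of 1.07 (1.04 to 1.10). In the 0 mM library 340 S-list cells had 7069 CPM and 604 others 6315 CPM, a ratio of 1.12 (1.09 to 1.15). The matrix arm had ratios of 1.13 (1.08 to 1.19) at 2 mM and 1.17 (1.12 to 1.22) at 0 mM, and the membrane arm 1.05 (1.02 to 1.09) and 1.10 (1.07 to 1.13). Complexes II to V had ratios of 1.13 at 2 mM and 1.12 at 0 mM in these cells. Mitochondrial ribosome genes had larger ratios, 1.23 and 1.21, and mitochondrially encoded complex I genes 1.005 and 0.981. Median depth was 3766 UMIs in S-list cells and 2897 in others at 2 mM, and 3716.5 and 3651 at 0 mM. The part of depth in these ratios was not tested. Of 33 members, 26 had ratios above 1 in each library, 20 of them in both, beside 45.7% of 3827 genes above 1 in both. The members past 1.5-fold were 0 at 2 mM and 2 at 0 mM, both of the 2 higher in S-list cells, beside 17.3% of all genes at 2 mM (10.9% higher, 6.35% lower) and 15.1% at 0 mM (10.1% higher, 4.97% lower). As a share of the 33, those 2 lay below the share of all genes, so no trait of the set is read from them. Both belong to the N module, and neither passed 1.5-fold at 2 mM. NDUFS6 had 243 CPM in S-list cells and 157 CPM in others at 0 mM, and 249 CPM and 206 CPM at 2 mM. NDUFA6 had 233 CPM and 153 CPM at 0 mM, and 205 CPM and 156 CPM at 2 mM. On the low side stood NDUFB4 at 2 mM, with a ratio of 0.857, and NDUFA10 at 0 mM, with 0.861. Both intervals held 1. NDUFS6 overlaps the mitochondrial ribosome gene MRPL36 in RefSeq, so reads may be shared between them.

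G2/M-list cells also had the higher summed level in both libraries. How this difference compares with that on the S list was not tested. At 2 mM, 396 G2/M-list cells had 7511 CPM and 404 others 7064 CPM, a ratio of 1.06 (1.04 to 1.09). At 0 mM, 527 had 6795 CPM and 417 others 6350 CPM, a ratio of 1.07 (1.05 to 1.10). Complexes II to V had ratios of 1.06 at 2 mM and 1.09 at 0 mM in the same comparison, and mitochondrial ribosome genes 1.20 and 1.16. Median depth was 3441.5 UMIs in G2/M-list cells and 2840.5 in others at 2 mM, and 3621 and 3720 at 0 mM. In both libraries at once, 15 of 33 members were above 1 and 5 below, beside 43.1% of 3755 genes above 1 in both and 31.5% below in both. The share of members above 1 in both was thus near that of all genes. The members' median log2 ratio was 0.10 at 2 mM and 0.06 at 0 mM, beside 0.03 and 0.05 over all genes. The members past 1.5-fold were 0 of 33 in each library, beside 11.7% of all genes at 2 mM (7.34% higher, 4.41% lower) and 11.6% at 0 mM (7.87% higher, 3.75% lower). NDUFA2, an N-module accessory subunit with a thioredoxin-like fold, had 240 CPM and 186 CPM at 2 mM, and 232 CPM and 176 CPM at 0 mM, giving ratios of 1.29 and 1.32. NDUFA6 again had ratios of 1.31 in each library. The lowest ratios were those of NDUFA3 at 2 mM, 0.770, and NDUFA8 at 0 mM, 0.936.

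The hypoxia list gave ratios that depended on the settings. At 2 mM, 199 hypoxia-list cells had 7128 CPM and 601 others 7373 CPM, a ratio of 0.967 (0.937 to 0.997). At 0 mM, 236 had 6276 CPM and 708 others 6697 CPM, a ratio of 0.937 (0.911 to 0.964). For 5 or more UMIs of the list the ratio was 1.02 at 2 mM and 0.851 at 0 mM. With cells thinned to 500 UMIs it was 0.939 at 2 mM and 0.992 at 0 mM. Of 33 members, 15 were below 1 in both libraries and 3 above in both. Over 3726 genes these shares were 28.0% and 25.4%. Past 1.5-fold were 0 of 33 members at 2 mM and 1 of 33 at 0 mM, beside 3.63% of all genes at 2 mM (1.51% higher, 2.12% lower) and 2.76% at 0 mM (1.36% higher, 1.41% lower). That 1 was NDUFB3, a membrane arm subunit, with 123 CPM in hypoxia-list cells and 210 CPM in others at 0 mM. At 2 mM it had 205 CPM and 189 CPM, so the direction did not recur. At 2 mM the highest ratio was that of NDUFB4, 1.19, and the lowest that of NDUFA2, 0.815. NDUFS1 had the highest ratio at 0 mM, 1.38 (1.10 to 1.71), and 1.02 at 2 mM.

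**Figure D4:**
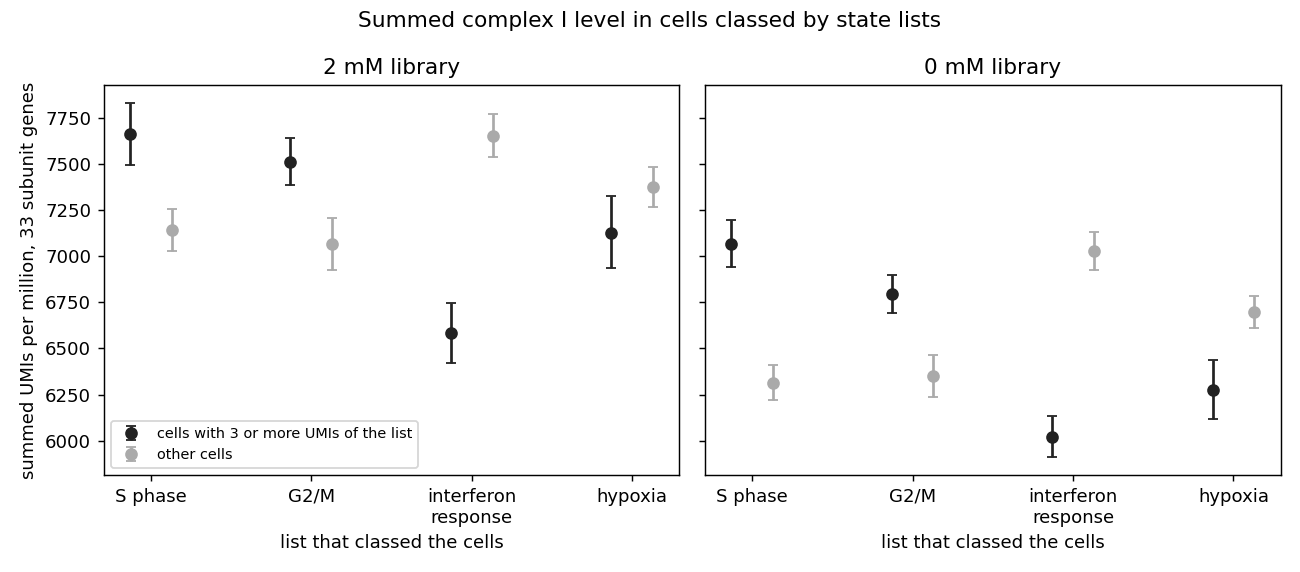
Summed CPM of the 33 subunit genes in cells with 3 or more UMIs of each state list (black) and in the other cells (grey), for the 2 mM library (left) and the 0 mM library (right), with exact 95% Poisson intervals; the vertical axis does not start at 0. Interferon-list cells lie lowest in both panels, at 6582 CPM and 6021 CPM.

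Single subunits were too sparse to follow cell by cell. At 1000 UMIs per cell, NDUFA4 was seen in 49.5% (45.98% to 53.0%) of 800 cells at 2 mM and in 51.8% (48.6% to 55.0%) of 944 cells at 0 mM. NDUFB2 was seen in 39.3% (35.8% to 42.7%) at 2 mM and 24.3% (21.6% to 27.1%) at 0 mM, and NDUFV2 in 2.25% (1.34% to 3.53%) and 2.86% (1.89% to 4.13%). Fewer than 25% of cells held a UMI of 26 members at 2 mM and of 28 at 0 mM. All cells of the line are thought to use these genes, so there was no cell type without them against which free RNA could be read, and its part in these shares was not tested. As a sum, the 33 genes gave a mean of 7.15 ± 3.17 UMIs per cell at 2 mM (SD over 800 cells) and 6.30 ± 3.23 at 0 mM (SD over 944 cells). No cell at 2 mM had 0 subunit UMIs, and 6 cells at 0 mM did. The variance was 1.41 times the mean at 2 mM and 1.65 times at 0 mM, against a value of 1 for pure counting noise.

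Per cell, the correlation of complex I transcripts was higher with other nuclear respiratory genes than with the mitochondrially encoded subunits of their own complex, and weak with the last. Over cells, the summed share of the 33 genes among non-mitochondrial UMIs had a Spearman correlation with the UMIs of the 7 MT-ND genes of 0.22 at 2 mM (800 cells) and 0.18 at 0 mM (944 cells), and Pearson correlations of 0.15 and 0.11. With complexes II to V the Spearman values were 0.43 and 0.48, and with the mitochondrial ribosome 0.23 and 0.27. The MT-ND genes went with the other mitochondrially encoded genes at 0.63 and 0.62. These values describe cells of 1 library that share its preparation, a fixed total per cell and sparse counts. The lists differ in UMIs per cell, and the differences between the values were not tested. The matrix and membrane arms of complex I themselves had Spearman values of only 0.17 and 0.20. Complexes II to V had values with MT-ND of 0.22 and 0.21, close to those of complex I.

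Pooled cells with the fewest MT-ND transcripts had the lowest complex I level. Cells were ranked by MT-ND UMIs and cut into 3 equal parts. At 2 mM the 33 subunit genes had 6746 (6432 to 7071), 7905 (7562 to 8259) and 8076 (7725 to 8439) CPM of non-mitochondrial UMIs in the lowest, middle and highest part. At 0 mM the values were 6085 (5810 to 6371), 6822 (6529 to 7126) and 7188 (6883 to 7503). The lowest part stood below the other 2 in both libraries, whose intervals overlapped each other. Median depth in these parts was 3023, 3229 and 3023 UMIs at 2 mM, and 3162, 3855 and 3900 at 0 mM. At 0 mM the complex I level also went with depth, at 5740, 6327 and 6838 CPM from the shallowest to the deepest part of the cells, whereas at 2 mM it was 6884, 7498 and 7079. The part of depth in the 0 mM values was not tested. Complexes II to V had the same order of levels, with 15556, 17669 and 18759 CPM at 2 mM, and 14042, 16110 and 17061 CPM at 0 mM, so the pattern was not particular to complex I. The mitochondrial ribosome genes had 4176, 4651 and 4290 at 2 mM, and 3901, 4259 and 4103 at 0 mM, with overlapping intervals in the lowest and highest part. Within cells with few interferon transcripts, a check added after seeing the data, the Spearman correlation of complex I with MT-ND genes was 0.17 at 2 mM and 0.14 at 0 mM.

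**Figure D5:**
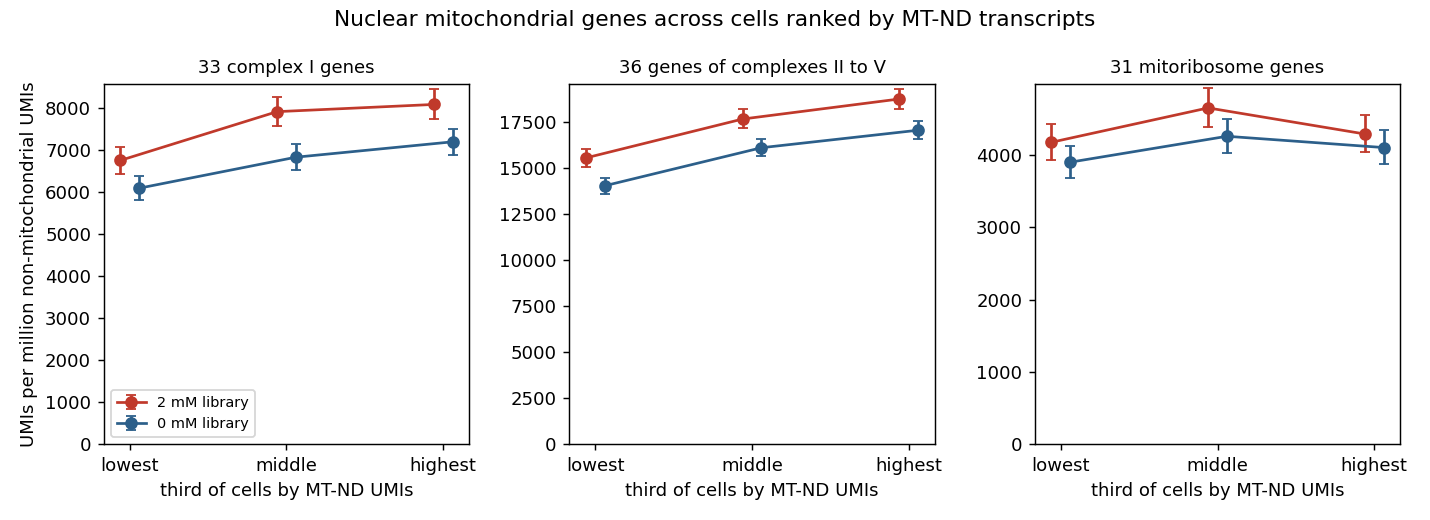
CPM among non-mitochondrial UMIs of complex I genes, complexes II to V and mitochondrial ribosome genes in cells cut into 3 parts by their MT-ND UMIs, in the 2 mM library (red) and the 0 mM library (blue), with exact 95% Poisson intervals. Complex I runs from 6746 to 8076 at 2 mM and from 6085 to 7188 at 0 mM between the lowest and the highest part.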

How the data were processed

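The authors deposited whole UMI counts per gene and cell barcode. Tools listed in the submitters' processing notes are STAR 2.5.0a and bcl2fastq, with the build hg19. For barcode selection, UMI collapsing, annotation and strand, the step was not given in the sources used here. Columns were mapped to libraries by the name they start with (0 unmapped). Cells were required to hold 500 UMIs and 300 genes. No doublet caller was run. Doublets within 1 line may join cells of different states, and their part in the state classes was not tested. Counts were summed per library and divided by its total (CPM). Ratios have exact conditional Clopper-Pearson intervals, sums exact Poisson intervals and shares exact Clopper-Pearson intervals. A test was not possible on 1 library a dose. TMM factors came from edgeR 4.0.16, the rest from Python 3.11.15 with scipy 1.17.1. The computation was tested on simulated data. Values were given for members past 1.5-fold, the extremes of each module and state list, the highest and lowest levels and the core subunits. The members, lists and rules were chosen with earlier results of these data known. Coordinates belong to RefSeq GRCh38.p14 promoter windows, not to the hg19 counts.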

Additional observations from a re-analysis of the deposited data

Results flagged for a closer look

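NDUFB2-AS1, antisense to NDUFB2, lies outside the comparisons and had UMIs above the 3 that a count of 0 allows. It had 2.76 CPM (9 UMIs) at 2 mM and 2.95 CPM (13 UMIs) at 0 mM, a ratio of 0.934 (0.352 to 2.36).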

How the results depend on the processing

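No paired analysis was possible because each dose had 1 library. Of the summary values, 169 recomputed under an alternative stayed within the range set for them (counts within 1.5 times) and 30 left it. For single genes these numbers were 351 and 12. The range was counting error for ratios of sums and of single genes, but for medians it was the wide spread of their members' ratios. The ND1 median thus counted as within it when it went from 0.22 to 0.004 in thinned cells. Merging barcodes 1 base apart or dropping the minimum cannot change a single gene's ratio between libraries or the ratio of summed levels. Those values stayed the same by construction. NDUFB2, the 1 member past 1.5-fold between libraries, kept its direction under the alternatives run for it. The members past 1.5-fold on the state lists were not recomputed. The median log2 ratio (0.03 in the report) crossed 0, and the hypoxia ratio at 2 mM crossed 1. That median was -0.060 with TMM factors and -0.047 with median-ratio size factors, and the ratio of summed levels 1.04 and 1.05. That ratio was 1.14 in cells thinned to 1000 UMIs, where 2 members, NDUFB2 and NDUFS8, passed 1.5-fold. No share of all genes is given for thinned cells, so nothing about the members is read from that count. Alternatives chosen after seeing the data gave the next values, up to the Spearman correlation in interferon-list cells. The ratio of summed levels was 1.13 in cells below the S-phase threshold, 1.14 in hypoxia-list cells and 1.07 without NDUFB2, a setting that gave 1.08 for the membrane arm and 1.18 for the ND5 module. Interferon-list cells over others had 0.896 in cells with few cycle transcripts at 0 mM and 0.886 in cells with cycle transcripts at 2 mM. The Spearman correlation with MT-ND genes was 0.14 in interferon-list cells at 2 mM. The remaining alternatives were planned. At a threshold of 5 UMIs, S-list ratios were 1.13 at 2 mM and 1.08 at 0 mM, and hypoxia ratios 1.02 and 0.851. Thinned to 500 UMIs, the ratio was 1.07 for S phase at 0 mM, 0.833 for interferon at 2 mM and 0.992 for hypoxia at 0 mM, and the variance over mean 1.35 at 0 mM. Thinned to 2000 UMIs, it was 1.02 for G2/M at 2 mM, and for interferon 0.938 at 2 mM and 0.890 at 0 mM, the Spearman value 0.30 at 2 mM, and the variance over mean 2.08 at 2 mM and 2.04 at 0 mM. From thinned UMIs alone, S phase gave 1.08 at 0 mM and interferon 0.818 at 2 mM. The causes of these shifts were not tested. Depth limits single members within cell classes, and a single library per dose leaves the spread between cultures unknown.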
